A study of Mus musculus with 14 samples.

Results

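Lysosome and autophagy genes were followed through RNA-seq of dorsal hippocampus from WT mice and from THY-Tau22 mice, a model of Tau pathology. The set was a list of 33 gene names, matched by symbol in both deposited count tables. It gave 34 rows of the 26570 genes of the basal table and of the 25933 genes of the learning table, since Glb1 is listed under 2 Ensembl identifiers (ENSMUSG00000045594 and ENSMUSG00000079260) whose exons overlap. The list holds luminal hydrolases and their cofactors, lysosomal genes enriched in microglia in the brain, membrane proteins of the lysosome, subunits of its proton pump, the transcription factor Tfeb, and genes of autophagosome formation and cargo. All 34 rows passed edgeR's filter on low counts in each fit, so no member was lost.

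The samples were male C57BL6 mice aged 8 months in 6 groups. The basal (resting) experiment had WT (n = 3) and THY-Tau22 mice (n = 2), for which the labels give no injection or training. In the learning experiment, WT VEH (n = 2) were WT mice injected with saline and trained in the Morris water maze, a test of spatial memory, and WT VEH_HC (n = 3) were saline-injected WT mice kept in the home cage. TAU VEH (n = 2) were trained mice of the THY-Tau22 line that received CSP, carbon nanospheres used as the carrier, and TAU MOL (n = 2) were trained THY-Tau22 mice injected with CSP-TTK21, an activator of the acetyltransferases CBP and p300 bound to that carrier. THY-Tau22 mice carry a mutated human Tau under a Thy1.2 promoter, which drives it in neurons. TAU VEH and WT VEH therefore differed in genotype and in the injected vehicle together. The authors left 3 further learning libraries out after sequencing, for their great variability in heatmaps of global sample differences. The paper states that this was decided afterwards and that the 3 mice came from the same litter. These libraries were not analysed here.

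Lysosomes are acidic organelles in which hydrolases such as the cathepsins degrade proteins, lipids and sugars delivered by endocytosis, phagocytosis and autophagy. In macroautophagy, an isolation membrane grows around its cargo, LC3 and GABARAP proteins are attached to its lipids, and the closed autophagosome fuses with a lysosome. Neurons rely on this route to clear aggregated proteins, Tau among them, while microglia hold much of the brain's phagocytic lysosomal content. TFEB switches on many of these genes together through a palindromic promoter element built around an E-box.

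That element was searched for in the promoter windows of RefSeq (GRCm38.p6 build), which run from 250 bases before to 50 bases after each gene's start. Of the 33 names, 27 had at least 1 window. The E-box core CACGTG, a palindrome that reads the same on both strands, was in the windows of 10 of these 27 genes (37.0%). It was in 8.09% of all 27025 genes of the table, and in 21 of 103 other lysosome and autophagy genes (20.4%). The longer palindrome TCACGTGA, which contains the core, was in 5 of the 27 members (18.5%) and in 7 of the 103 other lysosome and autophagy genes (6.8%). It was in 1.12% of all genes. All genes here means every gene with a window, expressed in hippocampus or not. The sequences are shown because they let a reader see which members carry the letters of this element, with the matched palindrome in capitals and the gene's strand written 5′ to 3′. Where a gene held several copies, 1 is shown.
Ctsd, chr7:142387908-142387937, minus strand: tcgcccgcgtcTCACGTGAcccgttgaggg
Mcoln1, chr8:3500462-3500491, plus strand: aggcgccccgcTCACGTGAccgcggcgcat
Atp6v0d1, chr8:105566050-105566079, minus strand: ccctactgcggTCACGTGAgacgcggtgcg
Ctsa, chr2:164833749-164833778, plus strand: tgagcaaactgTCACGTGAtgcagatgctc
Gla, chrX:134601182-134601211, minus strand: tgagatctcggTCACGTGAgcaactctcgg
Lamp1, chr8:13159134-13159163, plus strand: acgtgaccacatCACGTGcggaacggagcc
Glb1, chr9:114401018-114401047, plus strand: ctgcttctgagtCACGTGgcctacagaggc
Atg5, chr10:44268313-44268342, plus strand: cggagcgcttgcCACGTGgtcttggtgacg
Ctsl, chr13:64370739-64370768, minus strand: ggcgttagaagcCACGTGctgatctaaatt
Atg7, chr6:114670952-114670981, plus strand: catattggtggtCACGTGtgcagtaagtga

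The core began 98 bases before the start in the Ctsd window and 45 bases before it in the Mcoln1 window shown. Lamp1 held 4 copies of the core, the most of any member, and Ctsa, Ctsd, Gla and Mcoln1 held 2 each. A match describes letters only and is not a measured binding site.

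Levels were compared between genes in CPM per kilobase of exon, where CPM is a count scaled by its library's total and edgeR's TMM factor. In WT basal mice, Psap, the precursor of the saposins that help hydrolases degrade sphingolipids, stood first at 774 ± 24.4 CPM per kb (SD, n = 3). Gabarapl1, a GABARAP family protein of the autophagosome, followed at 398 ± 21.8 CPM per kb. Both stood apart from the next gene in every library. The aspartyl protease Ctsd (196 ± 9.46 CPM per kb) and the LC3 gene Map1lc3a (196 ± 18.9 CPM per kb) came next, and their libraries overlapped. Sqstm1, the cargo receptor p62, was at 166 ± 5.83 CPM per kb and Lamp1, the main membrane glycoprotein of the lysosome, at 161 ± 4.45 CPM per kb, again with overlapping libraries. Tfeb was near the bottom at 2.29 ± 0.171 CPM per kb, beside the short model of Glb1 at 2.28 ± 0.433 CPM per kb. In WT VEH mice Psap was again first (926 ± 23.7 CPM per kb, n = 2), and Gla, the alpha-galactosidase, last at 1.97 ± 0.119 CPM per kb. Of the 33 pairs of neighbours in this order, 12 overlapped in WT basal and 9 in WT VEH mice. With the longest transcript as the length, 5 of the 6 highest WT basal genes were still among the first 6.

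**Figure D1:**
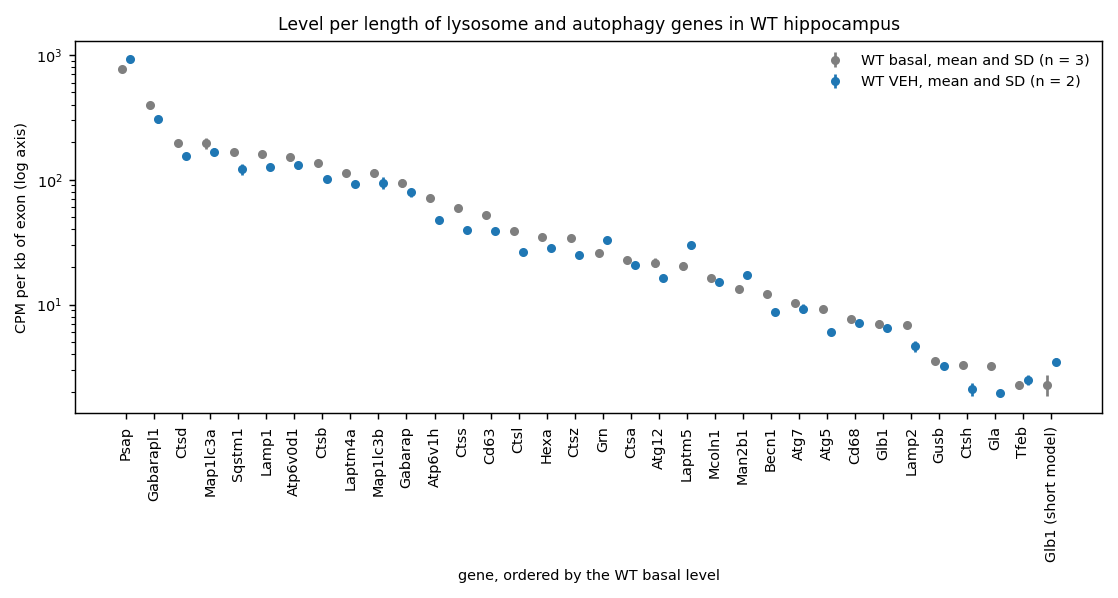
Mean and SD of the level per length (CPM per kb of exon, log axis) of the 34 rows in WT basal (n = 3) and WT VEH (n = 2) mice, ordered by the WT basal level. Levels run from 774 CPM per kb for Psap to 2.28 CPM per kb for the short model of Glb1 in WT basal mice. The 2 experiments were normalised separately, so the offset between the 2 colours is not a comparison.

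Library totals ran from 28639121 to 37681155 counts in the basal and from 24693713 to 52180305 in the learning experiment. Thy1, whose promoter drives the transgene, was higher in every THY-Tau22 library than in every WT library, with a log2 fold change of 1.33 in basal mice, 1.21 in TAU VEH and 1.32 in TAU MOL mice against WT VEH (edgeR's quasi-likelihood test, Benjamini-Hochberg adjusted p = 0.016, 3.39e-05 and 1.3e-05). Hippocampal neuronal markers were detected in every library, and 14 markers of the choroid plexus, a neighbouring tissue, were also detected in all. Their summed level was 3146 and 2193 CPM in WT VEH, 160 to 416 CPM in WT VEH_HC, 464 and 545 CPM in TAU VEH, and 1184 and 1072 CPM in TAU MOL mice. In the basal experiment it was 597 to 715 CPM in WT mice, and 704 and 1994 CPM in the THY-Tau22 mice. WT VEH thus stood above every other learning group in these markers, and the second THY-Tau22 basal library above the other basal ones. In bulk tissue, more cells of a type and more RNA per cell cannot be told apart.

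**Figure D2:**
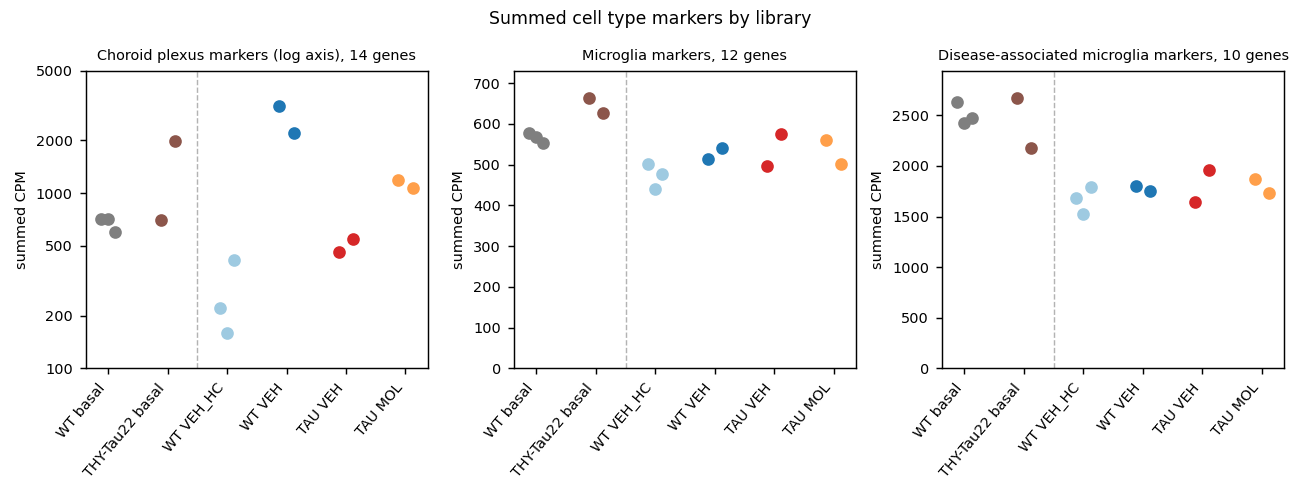
Summed CPM of the choroid plexus (14 genes, log axis), microglia (12 genes) and disease-associated microglia markers (10 genes), with 1 point per library and the basal groups left of the dashed line. The WT VEH libraries have the highest choroid plexus sums (3146 and 2193 CPM), while the microglia sums of the 4 learning groups lie between 439 and 576 CPM.

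The first question was whether these genes differ in THY-Tau22 mice at rest. A gene was called where its adjusted p lay under 0.05 and its log2 fold change beyond 0.2 in either direction, and 0 of 34 rows were called. Across all 16324 genes 0.0245% were called. At an unadjusted p under 0.05, 1 row passed, Cd68, against 4.92% of all genes. DESeq2 called 0 rows and 41 of all genes, in place of the 4 of edgeR, which called 125 with no filter on low counts and 37 with the replicate number as a block. The median log2 fold change of the rows was 0.034, against -0.0072 over all genes, and the range was -0.22 to 0.48.

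The 5 microglia-enriched genes were all above zero in the basal comparison, from 0.050 to 0.48 on the log2 scale, without a call. Cd68, a scavenger receptor of phagocytic lysosomes, was at 9.21, 10.3 and 9.58 CPM in WT and 13.5 and 13.5 CPM in THY-Tau22 mice, a log2 difference of 0.48 ± 0.13 (SE; edgeR's quasi-likelihood test, Benjamini-Hochberg adjusted p = 0.86). The 2 groups did not overlap. The protease Ctsz was at 48.5, 48.4 and 52.0 CPM in WT and 60.9 and 56.2 CPM in THY-Tau22 mice, again without overlap (log2 difference 0.24 ± 0.11, adjusted p = 0.90). Ctss, the cathepsin S of antigen-presenting cells, was at 82.9, 82.2 and 78.7 CPM in WT and at 83.7 and 114 CPM in THY-Tau22 mice. The high value belonged to the THY-Tau22 library with the high choroid plexus sum. Without that library the log2 difference of Ctss was 0.04 in place of 0.28, while that of Cd68 was 0.48. The groups of 9 rows, 8 higher and 1 lower in THY-Tau22 mice, did not overlap (26.5% of 34), against 18.5% of all genes. Summed over 12 markers, microglia stood at 553 to 578 CPM in WT and at 664 and 628 CPM in THY-Tau22 mice, with no marker at zero. Of 10 markers of disease-associated microglia 0 were called and 4 had an unadjusted p under 0.05. Their log2 differences ran from -0.11 to 2.64. Their sums overlapped, at 2424 to 2628 CPM in WT and at 2675 and 2176 CPM in THY-Tau22 mice. The part of these cells in the values of Cd68 and Ctsz was not tested.

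The 9 autophagosome genes lay between -0.22 and -0.057 at rest, and none was called. Their shared sign depended on the second THY-Tau22 library. Without it Map1lc3a was at 0.02 and Sqstm1, Becn1 and Gabarap at -0.01, -0.01 and -0.06, while Atg5 and Atg12 were at -0.31 and -0.21, again with 0 calls. Beside these values, 6 oligodendrocyte markers summed to 7053 to 11677 CPM in WT and to 6863 and 6549 CPM in THY-Tau22 mice, with 0 called, 5 at an unadjusted p under 0.05 and a median log2 difference of -0.51. The sum of 6 astrocyte markers was 3583 to 3705 CPM in WT and 4021 and 5178 CPM in THY-Tau22 mice, with 0 called and 2 at an unadjusted p under 0.05. Neither sum overlapped between the groups, no marker was at zero, and their part in the member values was not tested. Map1lc3a was at 253, 234 and 208 CPM in WT and at 235 and 162 CPM in THY-Tau22 mice, so that the groups overlapped (log2 difference -0.22 ± 0.16, adjusted p = 0.90). Gabarap, which works beside LC3 in autophagosome closure, was at 172, 189 and 161 CPM in WT and at 167 and 135 CPM in THY-Tau22 mice. Low values in both genes came from the second THY-Tau22 library. Sqstm1 (-0.13), Map1lc3b (-0.13), the other LC3 gene, and Becn1 (-0.06), the Beclin subunit of the lipid kinase that starts autophagosomes, were closer to zero. Of the hydrolases, Ctsd was at 515, 500 and 468 CPM in WT and at 565 and 539 CPM in THY-Tau22 mice, and Ctsb, a cysteine protease, at 641, 659 and 638 CPM against 680 and 673 CPM. These groups did not overlap, and the log2 differences of 0.16 ± 0.12 and 0.07 ± 0.11 did not pass the test (adjusted p = 0.90 and 0.95). Lamp1 (-0.09), the calcium channel Mcoln1 (-0.10) and Tfeb (-0.12) were not called.

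**Figure D3:**
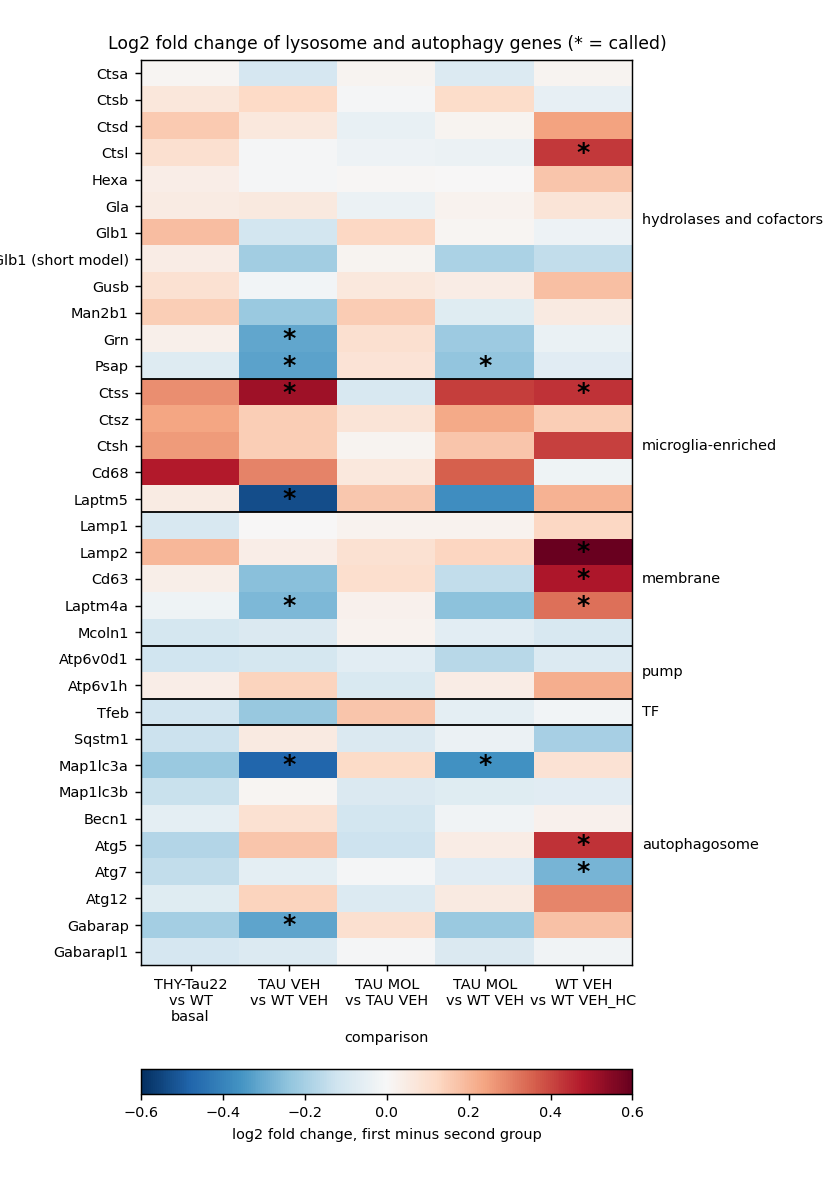
Log2 fold change (first minus second group, colour) of the 34 rows in the 5 comparisons between groups, ordered by role, with an asterisk where a gene was called. No row is called in THY-Tau22 against WT basal mice or in TAU MOL against TAU VEH, and 7 each are called in TAU VEH against WT VEH and in WT VEH against WT VEH_HC.

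In trained mice, TAU VEH against WT VEH, 7 of 34 rows were called (20.6%), against 14.4% of all 16820 genes. Only 1 row was higher (3.61% of all genes were called higher), and 6 were lower (10.8% of all genes). Scaling by library size only turned this balance, to 4 rows higher and 2 lower, and over all genes from 608 higher and 1815 lower to 2578 higher and 1020 lower, while the median of all genes moved by 0.15. The higher gene was Ctss. The lower genes were Map1lc3a, Psap, Grn, Laptm5, Gabarap and Laptm4a, which code for autophagosome proteins, luminal cofactors and membrane proteins. The median log2 fold change of all rows was -0.011, beside 0.0041 over all genes. The libraries of the 2 groups did not overlap in 8 rows that were higher and 12 that were lower (58.8% of 34), against 57.9% of all genes, so a lack of overlap is common here. DESeq2 called the same 7 rows in the same directions.

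Ctss was at 53.0 and 53.7 CPM in WT VEH and at 73.6 and 78.3 CPM in TAU VEH mice. Both TAU VEH libraries were above both WT VEH libraries, a 1.42-fold higher level (log2 fold change 0.51 ± 0.12, SE; edgeR's quasi-likelihood test, Benjamini-Hochberg adjusted p = 0.019). Ctss lies on chromosome 3 (95330708 to 95360325, mm9). Laptm5, a membrane protein of lysosomes of blood and immune cells, moved the other way. It was at 119 and 108 CPM in WT VEH and at 76.2 and 80.9 CPM in TAU VEH mice, with no overlap (log2 fold change -0.53 ± 0.11, adjusted p = 0.0089). The other microglia-enriched genes were not called: Cd68 (0.30 ± 0.12, adjusted p = 0.14), Ctsz (0.15 ± 0.10) and Ctsh (0.15 ± 0.15).

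General microglia markers are given beside these values. Their sum was 513 and 540 CPM in WT VEH and 498 and 576 CPM in TAU VEH mice, which overlap, and of 12 markers 0 were called higher and 1, Tmem119, lower. Of 10 markers of disease-associated microglia, 3 were called higher in TAU VEH, Clec7a, Itgax and Lpl, and none lower. Their summed level was 1803 and 1748 CPM in WT VEH and 1648 and 1962 CPM in TAU VEH mice. The part of these cells in the Ctss and Laptm5 values was not tested.

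Markers of neurons and astrocytes also differed in this comparison. Of 8 neuronal markers, 4 were called lower in TAU VEH mice, Camk2a, Wfs1, Neurod2 and Rbfox3, and 0 higher, and their sum was 14767 and 14559 CPM in WT VEH and 11584 and 11198 CPM in TAU VEH mice. Of 6 astrocyte markers, 3 were called higher, Gfap, Slc1a2 and Aqp4, and 0 lower, with sums of 3342 and 2959 CPM in WT VEH and 4039 and 4007 CPM in TAU VEH mice. Neither pair of sums overlapped. The part of these cell types in the values of the called members was not tested.

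Map1lc3a, on chromosome 2 (155102033 to 155103809, mm9), was the member with the lowest adjusted p. It was at 189 and 207 CPM in WT VEH and at 140 and 144 CPM in TAU VEH mice (log2 fold change -0.48 ± 0.07, adjusted p = 0.0019), so both TAU VEH libraries lay below both WT VEH libraries. Gabarap was at 138 and 154 CPM in WT VEH and at 116 and 119 CPM in TAU VEH mice, also without overlap (log2 fold change -0.32 ± 0.08, adjusted p = 0.018). The other members of the conjugation machinery and its cargo gave smaller differences, in both directions. Map1lc3b was at 148 and 174 CPM in WT VEH and at 161 and 164 CPM in TAU VEH mice, a log2 difference of 0.01 ± 0.09. Sqstm1 was at 378 and 435 CPM against 411 and 433 CPM (0.05 ± 0.09), and Becn1 at 60.2 and 62.3 CPM against 62.9 and 67.8 CPM (0.09 ± 0.08). Of these 3 genes, Becn1 alone had groups that did not overlap, and none was called (adjusted p = 0.95, 0.77 and 0.53). Becn1 shares 3104 bases of exon with Cntd1 on the other strand, and reads of the 2 genes cannot be told apart with a kit that does not mark strand. The same holds for 580 bases of Sqstm1 shared with 3010026O09Rik, 769 bases of Ctsb shared with Fdft1, 177 bases of Lamp1 shared with Grtp1, and 324 and 495 bases of Ctsa shared with Neurl2 and Pltp. Atg5 (0.17), Atg12 (0.14), Atg7 (-0.06) and Gabarapl1 (-0.08) were not called. The 27 rows without a call in this comparison lay between -0.25 and 0.30.

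Among the luminal genes, Psap, on chromosome 10 (59740375 to 59765345, mm9), was at 2480 and 2572 CPM in WT VEH and at 2009 and 2039 CPM in TAU VEH mice (log2 fold change -0.32 ± 0.06, adjusted p = 0.0040). Grn, the gene of progranulin, a secreted protein that reaches lysosomes with prosaposin, was at 104 and 103 CPM in WT VEH and at 82.4 and 84.6 CPM in TAU VEH mice (-0.31 ± 0.07, adjusted p = 0.0082). In both genes the groups stood clear of each other. Of the cathepsins listed with the luminal hydrolases, Ctsa, Ctsb, Ctsd and Ctsl, none was called. Ctsd was at 391 and 396 CPM in WT VEH and at 387 and 435 CPM in TAU VEH mice, and Ctsb at 464 and 504 CPM against 511 and 541 CPM. Their log2 differences were 0.06 ± 0.08 and 0.12 ± 0.09 (adjusted p = 0.71 and 0.47). The alpha-mannosidase Man2b1 was just outside the limit, at 75.5 and 74.0 CPM against 60.8 and 67.3 CPM (-0.22 ± 0.07, adjusted p = 0.055). The remaining rows of this role lay between -0.21 and 0.06.

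Laptm4a, a small membrane protein of late endosomes and lysosomes, was at 188 and 202 CPM in WT VEH and at 156 and 167 CPM in TAU VEH mice, without overlap (log2 fold change -0.27 ± 0.08, adjusted p = 0.033). Lamp1 was at 287 and 282 CPM in WT VEH and at 278 and 292 CPM in TAU VEH mice, and its log2 difference was 0.00 ± 0.10. Lamp2 (0.04 ± 0.10), Mcoln1 (-0.09 ± 0.07) and Cd63 (-0.25 ± 0.11, adjusted p = 0.18), a tetraspanin of late endosomes, were not called. Tfeb was at 15.1 and 13.3 CPM in WT VEH and at 11.9 and 12.5 CPM in TAU VEH mice (-0.23 ± 0.15, adjusted p = 0.36), and the pump subunits Atp6v0d1 and Atp6v1h were at -0.10 and 0.13 without a call. Of the 10 members with the E-box core in their promoter window, 0 were called here, against 14.4% of all genes. The median log2 fold change of their 11 rows was -0.061, beside -0.080 in the 17 members with a window but no core.

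Each of the 4 libraries of this comparison bore on the count. Without TAU VEH replicate 1 only Map1lc3a was called, without TAU VEH replicate 2 or without WT VEH replicate 2 the 4 genes Grn, Laptm5, Map1lc3a and Psap, and without WT VEH replicate 1 the 3 genes Gabarap, Map1lc3a and Psap. Map1lc3a was thus called whichever library was left out. The log2 fold changes kept their sign in these 4 fits and lay within 0.46 to 0.55 for Ctss (adjusted p = 0.078 to 0.11, not called in any of them), -0.33 to -0.29 for Grn, -0.34 to -0.30 for Psap, -0.60 to -0.46 for Laptm5, -0.38 to -0.24 for Gabarap and -0.32 to -0.22 for Laptm4a. Over all genes, 915 to 1276 were called in these 4 fits, in place of 2423. Correcting each library for GC content and gene length left 2 calls, Gabarap (-0.32) and Laptm4a (-0.34), and moved Map1lc3a, whose exons are 63.6% GC, to -0.10, in a fit that called 484 of 16820 genes. Of the other lost calls, Psap was at -0.18 and Grn at -0.14 in that fit, while Ctss was at 0.41 (adjusted p = 0.067) and Laptm5 at -0.40 (adjusted p = 0.10). With the choroid plexus score as a covariate 0 rows were called, as were 0 of 16820 genes, so that count says nothing particular to the members. In that fit Map1lc3a was at -0.34 and Psap at -0.34, Ctss was at 1.16, and Laptm5 turned to 0.12. Over the 34 rows, fold change and GC content had a Spearman's rho of -0.50 across genes, which are not independent, close to the -0.52 over 16780 genes.

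**Figure D4:**
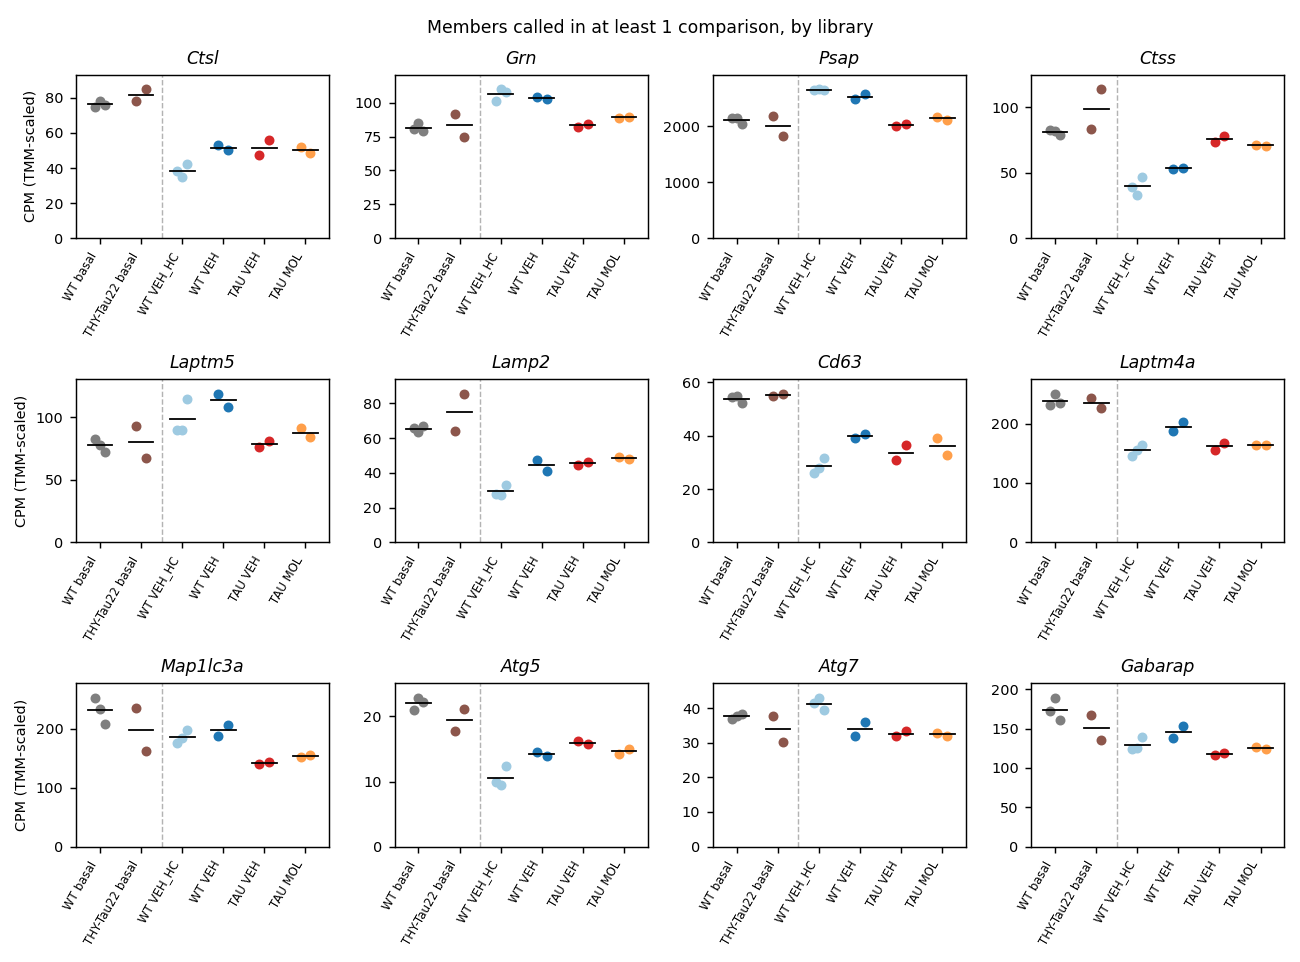
CPM (TMM-scaled, axis from 0) of the 12 genes called in at least 1 comparison, with 1 point per library, a line at each group mean, and the basal groups left of the dashed line. Map1lc3a, Psap, Grn and Gabarap are lower in both libraries of TAU VEH mice than in both of WT VEH mice, Ctss lies higher, and Lamp2 and Cd63 are higher in WT VEH than in WT VEH_HC mice.

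The difference between the THY-Tau22 effects in trained and in basal mice was tested in 1 fit over all 14 libraries, and 0 of 34 rows were called, against 0.129% of 17026 genes. At an unadjusted p under 0.05, 4 of 34 rows passed, against 7.78% of all genes. DESeq2 called 0 rows and 121 of all genes, where edgeR called 22. The furthest from zero was Laptm5, with a difference of -0.55 ± 0.21 on the log2 scale (adjusted p = 0.53). Map1lc3a, called in trained and not in basal mice, differed between them by -0.22 ± 0.20 (adjusted p = 0.81), and Ctss by 0.26 ± 0.19 (adjusted p = 0.78). The difference in trained mice was therefore not shown to differ from that at rest for either gene. Training, injection and experiment changed together between the comparisons, and the trained one also holds the change of vehicle. The test thus does not separate training from these. Without THY-Tau22 basal replicate 2, the library with the high choroid plexus sum, 3 rows were called lower, Grn, Laptm5 and Man2b1, in a fit that called 702 of 17494 genes lower.

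CSP-TTK21 was assessed by comparing TAU MOL with TAU VEH mice. None of the 34 rows was called (0.0% of all genes were called in this comparison), and at an unadjusted p under 0.05 the count was 0 of 34, against 6.33% of all genes. The members gave 0 calls in every alternative run, but all genes did not. DESeq2 called 54 of them, and edgeR 60 with only the groups compared and 233 with no filter on low counts. Log2 fold changes ran from -0.13 to 0.17, with a median of 0.018 beside 0.0089 over all genes. The groups did not overlap in 9 higher and 5 lower rows (41.2% of 34), against 38.9% of all genes. Map1lc3a was at 140 and 144 CPM in TAU VEH and at 153 and 155 CPM in TAU MOL mice, a log2 difference of 0.12 ± 0.07 with no overlap between the groups (adjusted p = 0.89). Psap was at 2009 and 2039 CPM in TAU VEH and at 2172 and 2111 CPM in TAU MOL mice (0.08 ± 0.06, adjusted p = 0.91). Ctss was at 73.6 and 78.3 CPM against 71.5 and 70.6 CPM (-0.09 ± 0.12, adjusted p = 0.98). The highest of these log2 differences was that of Tfeb, at 11.9 and 12.5 CPM in TAU VEH and at 13.8 and 13.5 CPM in TAU MOL mice (0.17 ± 0.15, adjusted p = 0.94), and it did not pass the test. Beside these values, all 14 choroid plexus markers were higher in TAU MOL mice without overlap, with a median log2 difference of 1.06, 13 at an unadjusted p under 0.05 and 0 called. Of 8 neuronal markers 3 had an unadjusted p under 0.05 and 0 were called, Wfs1 at 0.83, Syt1 at -0.17 and Snap25 at -0.18. Their part in the member values of this comparison was not tested.

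Set against WT VEH mice, TAU MOL mice had 2 called rows (5.88%), against 5.63% of all genes, and both were lower, against 5.02% of all genes called lower. The WT VEH libraries are the same as in the comparison with TAU VEH, so the comparisons are not independent. Without overlap between groups, 6 rows were higher and 12 lower (52.9% of 34), against 52.5% of all genes. Map1lc3a was at 153 and 155 CPM in TAU MOL, below the 189 and 207 CPM of WT VEH mice (log2 fold change -0.36 ± 0.07, adjusted p = 0.019). Psap was at 2172 and 2111 CPM, below 2480 and 2572 CPM (-0.24 ± 0.06, adjusted p = 0.038). Ctss, with 71.5 and 70.6 CPM in TAU MOL, gave 0.41 ± 0.12 and missed the limit (adjusted p = 0.080), as did Laptm5 (-0.37 ± 0.11, adjusted p = 0.082), Grn (-0.22 ± 0.07, adjusted p = 0.081) and Laptm4a (-0.24 ± 0.08, adjusted p = 0.087). With DESeq2 the count was 5, with Ctss, Laptm4a and Laptm5 added. Without any 1 of the 4 libraries (TAU MOL replicate 1 or 2, WT VEH replicate 1 or 2), and with the GC and length correction or the choroid plexus covariate, it was 0. Over all genes, these fits called 2 to 4 without a library, 25 with the GC and length correction and 2 with the covariate. With library size alone 2 rows were called, both higher, Cd68 and Ctss, and over all genes 757 higher and 326 lower in place of 103 and 844. Without a library, Map1lc3a lay between -0.42 and -0.29 and Psap between -0.26 and -0.21, and after the GC and length correction they were at -0.09 and -0.14. Markers of other cells moved in this comparison too. Of 14 choroid plexus markers 8 were called lower in TAU MOL mice (median log2 fold change of the 14 -1.37), of 8 neuronal markers 1, Camk2a, and of 12 microglia markers 1, Tmem119. Called higher were 2 of 10 markers of disease-associated microglia, Clec7a and Itgax, and 2 of 6 astrocyte markers, Gfap and Slc1a2, while 0 of 6 oligodendrocyte markers were called. Their part in the member values was not tested.

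Spatial training in WT mice was addressed by WT VEH against WT VEH_HC. Here 7 of 34 rows were called (20.6%), against 8.4% of all genes. Of these, 6 were higher in trained mice (5.35% of all genes were called higher), namely Lamp2, Cd63, Atg5, Ctss, Ctsl and Laptm4a, and Atg7 was lower (3.05% of all genes). Of the 5 members of the lysosomal membrane, 3 were called higher. The median log2 fold change of all rows was 0.080, beside -0.0028 over all genes. The libraries of trained and home-cage mice did not overlap in 13 higher and 4 lower rows (50.0% of 34), against 43.8% of all genes.

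Lamp2, a glycoprotein of the lysosomal membrane, was at 28.1, 27.4 and 32.8 CPM in WT VEH_HC and at 47.5 and 41.2 CPM in WT VEH mice. This was a 1.51-fold higher level, with no overlap (log2 fold change 0.59 ± 0.09, edgeR's quasi-likelihood test, Benjamini-Hochberg adjusted p = 0.0048). Lamp2 lies on chromosome X (35754534 to 35809631, mm9). Cd63 rose from 25.9, 27.7 and 31.7 CPM to 39.3 and 40.4 CPM (0.49 ± 0.10, adjusted p = 0.021). Laptm4a rose from 145, 155 and 164 CPM to 188 and 202 CPM (0.33 ± 0.07, adjusted p = 0.020). In both genes every trained library exceeded every home-cage library. Lamp1, by contrast, was at 279, 227 and 276 CPM in WT VEH_HC and at 287 and 282 CPM in WT VEH mice (0.13 ± 0.09, adjusted p = 0.37), and Mcoln1 at 58.0, 56.5 and 55.8 CPM against 51.4 and 55.0 CPM (-0.09 ± 0.07, adjusted p = 0.39).

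The proteases Ctsl and Ctss were both higher in trained mice. Ctsl, which cuts proteins in the lysosomal lumen, was at 38.5, 34.7 and 42.6 CPM in WT VEH_HC and at 53.2 and 50.2 CPM in WT VEH mice (log2 fold change 0.42 ± 0.09, adjusted p = 0.025). Ctss was at 38.9, 32.8 and 46.9 CPM against 53.0 and 53.7 CPM (0.43 ± 0.11, adjusted p = 0.041). Neither gene's groups overlapped. Ctsd was at 352, 311 and 334 CPM in WT VEH_HC and at 391 and 396 CPM in WT VEH mice, also without overlap, and missed the limit (0.24 ± 0.08, adjusted p = 0.069), as did Ctsh (0.41 ± 0.14, adjusted p = 0.078). Ctsb was at 556, 488 and 456 CPM against 464 and 504 CPM (-0.05 ± 0.09). Microglia markers summed to 501, 439 and 478 CPM in WT VEH_HC and to 513 and 540 CPM in WT VEH mice, and 2 of 12, P2ry12 and C1qc, were called higher. Of 5 blood markers 2, the near-identical globin genes Hbb-b1 and Hbb-b2, were called higher, and the sum of the 5 was 22.5 to 28.5 CPM in WT VEH_HC and 32.4 and 36.9 CPM in WT VEH mice, without overlap. The part of these cells in the member values was not tested.

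Of the autophagy genes, Atg5 and Atg7, which act in the conjugation of LC3, moved in opposite directions. Atg5 was at 9.87, 9.41 and 12.3 CPM in WT VEH_HC and at 14.5 and 13.98 CPM in WT VEH mice (log2 fold change 0.43 ± 0.11, adjusted p = 0.038). Atg7 was at 41.4, 43.0 and 39.5 CPM in WT VEH_HC and at 32.1 and 35.9 CPM in WT VEH mice (-0.28 ± 0.07, adjusted p = 0.038). In neither did the groups overlap. Sqstm1 was at 510, 460 and 433 CPM in WT VEH_HC and at 378 and 435 CPM in WT VEH mice (-0.20 ± 0.08, adjusted p = 0.14), and Map1lc3b, Becn1 and Tfeb gave -0.07, 0.03 and -0.02. The 27 rows without a call lay between -0.20 and 0.41. Of the 10 members with the E-box core, Atg5 and Ctsl were called higher and Atg7 lower, against 8.4% of all genes called, and the median log2 fold change of their 11 rows was 0.018, beside 0.15 in the 17 with a window but no core.

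All 14 choroid plexus markers were called higher in WT VEH than in WT VEH_HC mice, with a median log2 fold change of 3.21, and all 14 lower in TAU VEH mice, against WT VEH, with a median of -2.29. The choroid plexus sum and the training groups did not overlap, so the contribution of that tissue and of training to the member values cannot be told apart here. Both comparisons use the same WT VEH libraries, so they are not independent. Laptm4a and Ctss were called in both. The group means of Laptm4a rose in the order of the mean choroid plexus sums (WT VEH_HC, TAU VEH, TAU MOL, WT VEH), and those of Ctss did not. Laptm4a was at 156 and 167 CPM in TAU VEH and at 145, 155 and 164 CPM in WT VEH_HC mice. With the choroid plexus score as a covariate 0 of 34 rows and 0 of 16820 genes were called, so the count says nothing particular to the members. In that fit Lamp2 was at -0.16, Cd63 at -0.14, Ctsl at -0.31, Ctss at -0.52, Atg5 at -0.36, Atg7 at 0.046 and Laptm4a at 0.12. With the GC and length correction 3 rows were called, Lamp2 (0.50), Cd63 (0.51) and Laptm4a (0.32), among 766 of all genes. The 4 lost calls lay at 0.32 for Ctsl, 0.33 for Ctss, 0.34 for Atg5 and -0.23 for Atg7 (adjusted p = 0.057, 0.074, 0.071 and 0.062). Each left-out library changed the count. It was 0 without WT VEH replicate 1 and 1, Lamp2, without WT VEH replicate 2. Without WT VEH_HC replicate 1 it was 2, without replicate 2 it was 4, and without replicate 3, the home-cage library with the highest choroid plexus sum, it was 11. Over all genes the 5 fits called 73, 282, 614, 952 and 2798, in the same order. Log2 fold changes in these fits ran from 0.48 to 0.69 for Lamp2, 0.42 to 0.57 for Cd63, 0.28 to 0.38 for Laptm4a, 0.35 to 0.50 for Ctsl, 0.31 to 0.58 for Ctss, 0.36 to 0.56 for Atg5 and -0.36 to -0.20 for Atg7. Over the 34 rows, Spearman's rho of fold change and GC content in training was -0.53 across genes, beside -0.28 over 16780 genes, and -0.39 over the rows after the correction. Lamp2 was called in 11 of 13 alternatives, more than any other of the 7.

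**Figure D5:**
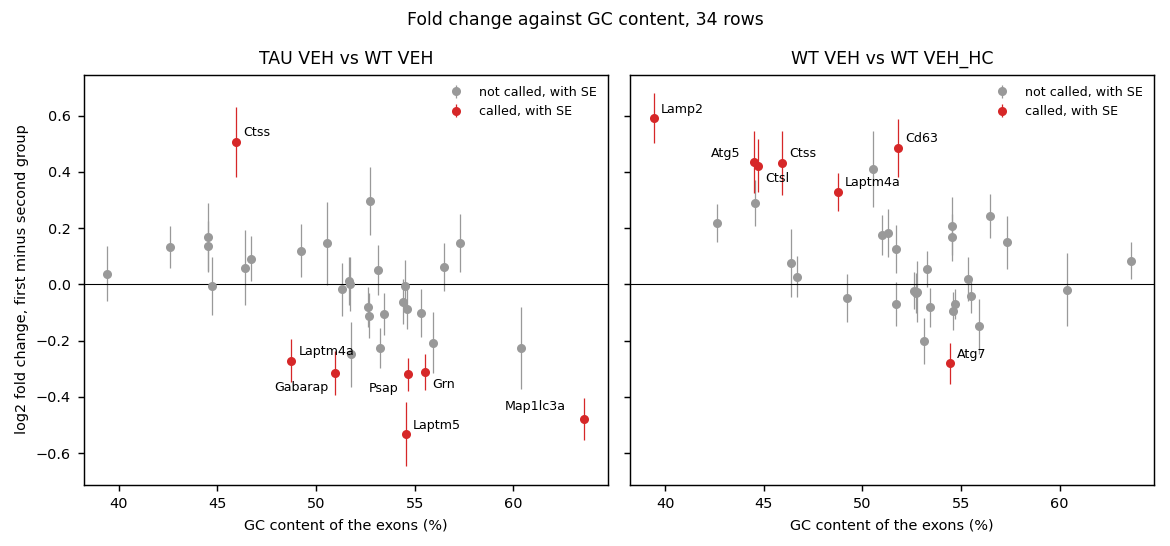
Log2 fold change (with SE) of the 34 rows against the GC content of their exons (%), for TAU VEH against WT VEH and for WT VEH against WT VEH_HC, with called genes in red. Fold changes fall from AT-rich to GC-rich members in both panels (Spearman's rho -0.50 and -0.53, beside -0.52 and -0.28 over 16780 genes), with Ctss and Lamp2 on the AT-rich side and Map1lc3a at 63.6% GC.

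Other genes of the pathway were counted in the same fits, from a list of 129 names that gave 124 tested rows. In basal mice 0 were called. In TAU VEH against WT VEH mice 4 were called higher and 23 lower, with a median log2 fold change of -0.017, where 3.61% of all genes were called higher and 10.8% lower. This balance depended on the processing. With library size alone 20 were called higher and 11 lower, with the GC and length correction 0 higher and 4 lower, and with the choroid plexus covariate 0. Leaving out a library gave 15 calls (TAU VEH replicate 1), 13 (TAU VEH replicate 2), 17 (WT VEH replicate 1) or 16 (WT VEH replicate 2). By role, the lower calls were 4 of 37 hydrolases, 6 of 19 membrane proteins, 6 of 16 proton pump subunits, 1 of 17 sorting and control genes and 6 of 35 autophagy genes. The proton pump subunits Atp6v0b (log2 fold change -0.64 ± 0.08, adjusted p = 0.0010) and Atp6v1a (0.31 ± 0.07, adjusted p = 0.015) moved in opposite directions. Plbd2, a luminal protein related to phospholipase B (-0.59 ± 0.09, adjusted p = 0.0015), and Vamp8, a SNARE of autophagosome fusion (-0.60 ± 0.17, adjusted p = 0.038), were lower, while Stx17, the SNARE on the autophagosome (0.33 ± 0.09, adjusted p = 0.034), and Rragd, a GTPase of nutrient sensing at the lysosome (0.33 ± 0.10, adjusted p = 0.043), were higher. In TAU MOL against TAU VEH mice 0 of 124 were called.

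In TAU MOL against WT VEH mice 14 of the 124 rows were called lower and 0 higher, where 5.63% of all genes were called and 5.02% were lower. The count was 0 with the GC and length correction, with the choroid plexus covariate, and without any 1 of the 4 libraries (TAU MOL replicate 1 or 2, WT VEH replicate 1 or 2), and with library size alone 3 were higher and 4 lower. Atp6v0b (-0.58 ± 0.08, adjusted p = 0.0099) and Atp6v0c (-0.45 ± 0.08, adjusted p = 0.010), both subunits of the membrane part of the pump, and Atg2a, a lipid transfer protein of the growing autophagosome (-0.43 ± 0.08, adjusted p = 0.013), were the lowest. In WT VEH against WT VEH_HC mice 15 were called higher and 4 lower, where 5.35% of all genes were called higher and 3.05% lower. The count of 19 was 8 with the GC and length correction, 0 with the choroid plexus covariate and 5 with only the groups compared. It was 0 without WT VEH replicate 1, 2 without WT VEH replicate 2, and 7, 10 and 30 without WT VEH_HC replicate 1, 2 and 3. Mitf, a transcription factor of the TFEB family (0.76 ± 0.13, adjusted p = 0.0086), Vamp8 (0.73 ± 0.15, adjusted p = 0.020) and Ctso (0.54 ± 0.09, adjusted p = 0.0096) were the furthest above zero. Sgsh, the sulfamidase of heparan sulfate breakdown (-0.38 ± 0.11, adjusted p = 0.049), Wipi1 (-0.28 ± 0.07, adjusted p = 0.028) and the pump subunit Atp6v0a1 (-0.26 ± 0.06, adjusted p = 0.025) were lower. Vamp8, higher in WT VEH than in both WT VEH_HC and TAU VEH mice, thus followed the order of the choroid plexus sum in these 3 groups, and the part of that tissue in its value was not tested.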

How the data were processed

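Dorsal hippocampus RNA-seq was analysed in 14 libraries of 6 groups, taken from the sample labels, which do not name the animals, so p-values measure the spread between these libraries. The learning p-values thus leave out the spread of the libraries that the authors removed for their variability. Per the labels and the methods of the study, the authors made poly-A libraries with a kit that does not mark strand, sequenced single-end reads, and aligned them to mm9 with TopHat2 2.0.10 and Bowtie2 2.1.0 after CASAVA 1.8.2. HTSeq 0.5.4p3 then gave the raw gene counts the authors deposited. The deposited tables also hold a normalized signal, each count divided by 1 factor per library, which was used only to check the columns, and columns of the authors' own comparisons, which were not used.

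Raw counts were tested with edgeR 4.0.16 (quasi-likelihood F test, TMM factors, filterByExpr, Benjamini-Hochberg adjustment over all genes tested), in 1 fit of the 5 basal libraries, 1 of the 9 learning libraries and 1 of all 14 for the difference of effects. The limits of a call were 0.05 for the adjusted p and 0.2 for the size of the log2 fold change. The scripts were tested on simulated data first. Depth ran from 24693713 to 52180305 counts, and libraries of a group varied with a common coefficient of variation of 0.129 (basal) and 0.0840 (learning).

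Alternatives were DESeq2 1.42.0, its size factors, library size alone, no filter on low counts, only the groups compared, the replicate number as a block, a loess correction for GC content and length (span 0.3), a choroid plexus score as a covariate, no limit on the fold change, and each library left out. Replicate numbers did not pair the samples: deviations from the group means of same-numbered libraries correlated from -0.140 to 0.0266 in the basal and from -0.143 to 0.422 in the learning experiment. Promoter windows came from RefSeq (GRCm38.p6), and gene positions, lengths and GC content from the mm9 annotation. Named were every member called in any comparison, Tfeb, Mcoln1, Lamp1, Ctsd, Ctsb, Sqstm1, Map1lc3b and Becn1, and up to 3 called genes per direction and comparison of the other pathway genes, with no overlap of libraries. Any further name was chosen once its values were known. The members and lists were chosen with earlier results of these data known.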

Additional observations from a re-analysis of the deposited data

How the results depend on the processing

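Counts of called members were 0 in every alternative run for THY-Tau22 against WT basal mice and for TAU MOL against TAU VEH mice. For TAU VEH against WT VEH (7 calls) the count was 2 with the GC and length correction, 0 with the choroid plexus covariate and 1 to 4 when a library was left out. For TAU MOL against WT VEH (2 calls) it was 5 with DESeq2, 1 with DESeq2's size factors in edgeR, 0 with the GC and length correction, 0 with the choroid plexus covariate, 4 with no filter, 4 with only the groups compared, and 0 to 0 when a library was left out. For WT VEH against WT VEH_HC (7 calls) it was 3 with the GC and length correction, 0 with the choroid plexus covariate, 2 with only the groups compared, and 0 to 11 when a library was left out. For the difference between the THY-Tau22 effects (0 calls) it was 0 to 3 when a library was left out. A lone library left in a group is assumed to vary like the others. With the replicate block the counts were 7 for TAU VEH against WT VEH, 11 for training and 5 for TAU MOL against WT VEH. In these fits 2794, 3000 and 1321 of all genes were called (2423, 1413 and 947 without the block). The labels give same-numbered libraries no link but the number.

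Among the calls of members, the fold change changed sign under the choroid plexus covariate and under no other alternative run: Laptm5 0.12 in TAU VEH against WT VEH, and in training Ctsl -0.31, Ctss -0.52, Lamp2 -0.16, Cd63 -0.14, Atg5 -0.36 and Atg7 0.046. The score is confounded with the groups, and the cause was not tested. Library size alone moved the median of all genes by 0.15 in TAU VEH and by 0.12 in TAU MOL mice against WT VEH. Uncalled rows changed sign under other alternatives too, as Ctsa did in TAU VEH with library size alone (-0.10 to 0.046). With it, 3 of the 7 members called in TAU VEH remained (Ctss, Laptm5, Map1lc3a), Atg12, Atp6v1h and Cd68 were called higher, and in TAU MOL mice Cd68 and Ctss were called higher while Map1lc3a (-0.24) and Psap (-0.12) were not called. The longer palindrome was in 5 member promoters in place of 10 for the E-box core, as its construction requires a stricter match.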
